A study of Homo sapiens with 9 samples.

Results

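The baseline transcriptome of C28/I2 cells was described from the 3 Control libraries of a series of 9. The members are the samples titled as CA2 control 1 to 3, here named Control 1, Control 2 and Control 3. The other 6 libraries, 3 from a Scrambled group and 3 from a CA2 shRNA group of the same line, were not used, and no groups were compared. C28/I2 is an established human chondrocyte line, derived from juvenile costal cartilage and immortalised with the large T antigen of simian virus 40, so every level below belongs to an immortalised line grown in culture. The labels give no agent or construct for the Control cells. They say neither whether these cells were transduced nor whether the replicates were separate cultures, so the spread between libraries may be technical. Total RNA was extracted with RNeasy Mini columns, and the labels name QIAGEN FastSelect, which removes ribosomal RNA.

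Chondrocytes are the cells of cartilage. They build a matrix of type II, IX and XI collagen fibrils filled with aggrecan, a proteoglycan that holds water through its chondroitin sulphate chains. The transcription factor SOX9, with its partners SOX5 and SOX6, drives these matrix genes. Chondrocytes kept on plastic are known to lose type II collagen and aggrecan and to make type I collagen, the collagen of bone, skin and tendon.

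Libraries held 23721190, 20715858 and 34261244 counts in Control 1, 2 and 3. A floor of 3 counts corresponded to 0.126, 0.145 and 0.0876 CPM, the count of a gene scaled to a common library total. Levels of different genes are compared per length, as RPKM, which is the CPM of a gene divided by its exon length in kilobases, and are given as mean ± SD over the 3 libraries (SD, n = 3). A gene counts as expressed where it reached 1 RPKM in each of the 3 libraries, trace where it stayed below 0.1 RPKM in each, and low otherwise. These are bulk libraries, so fewer cells with a transcript and less of it per cell cannot be told apart. The 3 libraries ranked genes alike, with Spearman correlations across the 10819 expressed nuclear protein-coding genes of 0.997, 0.994 and 0.998, given as a description because genes are not independent replicates. The median coefficient of variation of these genes was 4.90%, and its 95th percentile was 14.9%. The libraries differed more in mitochondrial RNA, which took 5.97%, 5.85% and 4.06% of the counts, and in the nuclear long noncoding RNA NEAT1, at 682, 309 and 158 CPM. Control 3 was lowest in both.

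Of 19913 nuclear protein-coding genes, 10819 were expressed, which is 54.3%. This share is the background for the counts of each protein-coding list below. A further 3638 were low and 5456 were trace, and 2402 of these had no count in any library. The protein-coding genes took 91.5% ± 1.23 of all counts. Mean levels reached 1000 RPKM in 4 genes, 100 RPKM in 276 and 10 RPKM in 4348. The 10 most abundant genes of any type held 7.13% ± 0.738 of the counts, the top 100 held 19.2% ± 0.78 and the top 1000 held 48.3% ± 0.249. No single gene dominated these libraries.

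**Figure D1:**
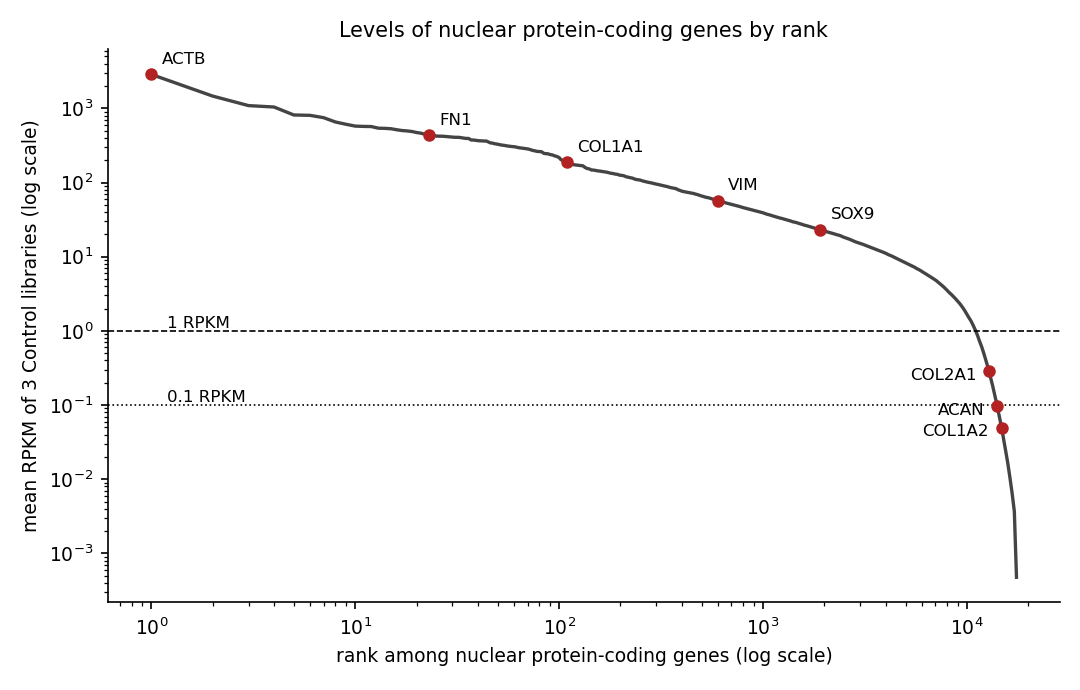
Mean RPKM of nuclear protein-coding genes over the 3 Control libraries against their rank from highest to lowest (both axes log), with named genes as points and lines at 0.1 and 1 RPKM. COL1A1 sits at rank 109, VIM at 601 and SOX9 at 1912, while COL2A1 lies at 12868 and ACAN at 14103, near the end of the curve.

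Among nuclear protein-coding genes, genes of the cytoskeleton, translation, iron storage and histones led the ranking per length. ACTB, which encodes beta-actin, stood first at 2814, 2828 and 2957 RPKM in Control 1, 2 and 3. FTL, the light chain of the iron store ferritin, followed at 1462 ± 55.4 RPKM, ACTG1, gamma-actin, at 1088 ± 21.9 RPKM and TMSB10, an actin-binding thymosin, at 1041 ± 56.6 RPKM. These are the 4 nuclear protein-coding genes above 1000 RPKM. The 20 highest genes also included RPS2 and RPL32 of the ribosome, the translation factors EIF2S3 and EEF2, the poly(A)-binding protein gene PABPC1, the endoplasmic reticulum chaperone CALR, the glycolytic enzyme GAPDH and the peroxidase PRDX2. Their means ran from 472 ± 28.8 RPKM for PPDPF to 804 ± 4.71 RPKM for RPS2, leaving out the histones. RPS2 shares 25.9% of its exon bases with other genes on the same strand and has pseudogene copies, so its level is uncertain. For GAPDH, 17.6% of the exon bases lie in exons on the opposite strand. Replication-dependent histone genes filled 6 of the 20 places (H3C3, H2AC20, H2BC12, H3C2, H1-2 and H1-5), led by H3C3 at 813 ± 52.5 RPKM. UBE2C, a ubiquitin-conjugating enzyme of mitosis, stood among them at 496 ± 28.6 RPKM.

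Ranking by CPM, which is not divided by length, gave a different head of the list. Only 8 of the 20 genes were shared, and the median exon length was 1660 bases for the genes ranked per length and 7248.5 bases for those ranked by CPM. Longer transcripts then came forward, those of matrix and cytoskeleton genes among them. FN1, fibronectin, held 7522 ± 391 CPM, FLNA, the actin cross-linker filamin A, 4753 ± 132 CPM, THBS1, the adhesive glycoprotein thrombospondin-1, 3173 ± 172 CPM and COL1A1 1700.0 ± 72.3 CPM. MKI67, which encodes the proliferation antigen Ki-67, held 1697 ± 140.2 CPM. Genes of other classes were also new to this list. EEF1A1 held 2530 ± 75.1 CPM, PKM 2486 ± 80.3 CPM, NUP210 2349 ± 93.4 CPM and HDLBP 1737 ± 58.8 CPM. TRIO held 1704 ± 174 CPM, NFIX 1653 ± 79.4 CPM and GNAS 1565 ± 77.7 CPM.

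The labelled cell type was checked against 5 markers, and the data matched it only in part. SOX9, VIM and COL1A1 were expressed, COL2A1 was low and ACAN lay at the trace limit. SOX9 (ENSG00000125398, chr17:72121020-72126416 in GRCh38), the master regulator of cartilage, was read at 20.9, 23.5 and 24.6 RPKM in Control 1, 2 and 3. VIM (ENSG00000026025, chr10:17228241-17237593), the mesenchymal intermediate filament vimentin, was read at 52.4, 58.2 and 60.2 RPKM, and 24.3% of its exon bases lie in exons on the opposite strand, so its level is uncertain. COL1A1 (ENSG00000108821, chr17:50184101-50201632), the alpha-1 chain of type I collagen, was read at 179.7, 192 and 195 RPKM. In each case the 3 libraries lay close together. COL2A1 (ENSG00000139219, chr12:47972967-48004554), the sole chain of type II collagen, was read at 0.247, 0.297 and 0.307 RPKM, from 39, 41 and 70 counts. ACAN (ENSG00000157766, chr15:88803436-88875354), aggrecan, was read at 0.08497, 0.106 and 0.0963 RPKM, from 22, 24 and 36 counts. Both are above the floor of 3 counts but rank below the expressed genes. COL1A1 exceeded COL2A1 per length by 728-fold, 645-fold and 635-fold in the 3 libraries. By these markers the cells carried the cartilage regulator and a fibroblast-like collagen, and the transcripts of the main cartilage collagen and proteoglycan stayed below the expression limit. They are referred to by the name of the line.

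Promoter letters were read from the RefSeq table for GRCh38.p14. Windows covered 250 bases before to 50 bases after the RefSeq start of each gene, which can differ from the start in the deposited annotation. Of the 19913 protein-coding genes, 15320 had an entry. The letters GGGCGG, which Sp-family factors read, were searched on both strands, along with TATAAA, the core promoter box, and CCAAT, which nuclear factor Y reads. GGGCGG was found in 73.2% of 8847 expressed genes, in 55.8% of 2661 low genes and in 29.4% of 3812 trace genes. Its share was 45.0% in all 35116 promoters of the table. The classes rest on the 15320 matched genes with 1 window each. All promoters of the table are a larger set, so they are no direct background for the classes. TATAAA was found in 5.13% of expressed genes, in 19.96% of trace genes and in 11.5% of all promoters, and CCAAT in 37.1%, 38.2% and 34.6%. The TATAAA share was 21.0% among the 229 genes with a mean of at least 100 RPKM. In the same genes CCAAT was found in 48.9% and GGGCGG in 72.5%. Many replication-dependent histone genes reached that level, and their part in these shares was not tested. Promoters of expressed genes held a median of 27 CG dinucleotides, against 18 for low genes and 5 for trace genes. These shares describe the letters in the window only.

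The promoters of ACAN, PRRX2 and PRRX1 are shown because their letters and the levels of their genes stand in different relations, and they were chosen after the values were seen. ACAN (chr15:88803186-88803485, plus strand) holds 33 CG dinucleotides and 8 copies of GGGCGG, 3 of them overlapping in sequence, although the gene was read near trace level. PRRX2 (chr9:129665397-129665696, plus strand) and PRRX1 (chr1:170663881-170664180, plus strand) belong to paired-related homeobox factors of limb and craniofacial mesenchyme, and only PRRX2 was expressed. PRRX2 holds 24 CG dinucleotides and 3 copies of GGGCGG. The window of PRRX1 lies inside the gene as the deposited annotation places it, whose start is at position 170662728. It therefore does not cover that start, and the windows of these genes are not a matched pair. It holds 11 CG dinucleotides, no GGGCGG and 2 copies of CCAAT. Capitals mark GGGCGG or its reverse complement in the first and second sequence, and CCAAT in the third, all read 5′ to 3′.
ACAN: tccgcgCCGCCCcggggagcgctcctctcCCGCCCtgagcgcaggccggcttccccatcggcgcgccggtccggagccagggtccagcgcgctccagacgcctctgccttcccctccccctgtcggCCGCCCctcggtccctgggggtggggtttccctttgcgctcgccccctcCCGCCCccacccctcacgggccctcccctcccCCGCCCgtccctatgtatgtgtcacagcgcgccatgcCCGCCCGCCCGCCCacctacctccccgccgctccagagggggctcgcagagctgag
PRRX2: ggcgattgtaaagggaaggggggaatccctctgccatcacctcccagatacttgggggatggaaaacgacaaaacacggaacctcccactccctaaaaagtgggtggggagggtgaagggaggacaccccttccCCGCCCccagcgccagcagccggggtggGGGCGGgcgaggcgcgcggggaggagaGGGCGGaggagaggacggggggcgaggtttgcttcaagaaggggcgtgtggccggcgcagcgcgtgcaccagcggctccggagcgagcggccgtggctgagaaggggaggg
PRRX1: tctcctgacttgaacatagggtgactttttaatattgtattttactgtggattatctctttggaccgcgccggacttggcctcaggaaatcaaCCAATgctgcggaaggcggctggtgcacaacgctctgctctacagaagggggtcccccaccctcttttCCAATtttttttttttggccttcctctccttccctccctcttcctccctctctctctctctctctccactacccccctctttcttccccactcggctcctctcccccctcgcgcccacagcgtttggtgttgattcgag

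Several fibroblast-like collagens were abundant, but COL1A2 was trace and COL3A1 was low, and the cartilage collagens stayed below 1 RPKM. Of 44 collagen genes, 17 were expressed, 11 were low and 16 were trace, a share of 38.6% expressed beside the 54.3% of all protein-coding genes. The highest were COL1A1 at 189 ± 8.03 RPKM, COL6A2 at 179 ± 1.31 RPKM, COL6A1 at 168 ± 0.704 RPKM and COL5A1 at 76.3 ± 2.83 RPKM. COL5A2, which joins COL5A1 in type V collagen, was read at 72.0 ± 1.43 RPKM, so the ratio of COL5A1 to COL5A2 was close to 1 (1.048, 1.104 and 1.028). COL6A1, COL6A2 and COL6A3 build the microfibrils of type VI collagen, which surround chondrocytes in cartilage. COL6A1 stood at 0.935, 0.932 and 0.939 times COL6A2 and at 2.86, 2.97 and 2.67 times COL6A3 in the 3 libraries. The remaining members of that family, COL6A5 and COL6A6, were trace at 0.009997 and 0.0557 RPKM.

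Type I collagen is normally a trimer of alpha-1 chains and an alpha-2 chain, which COL1A2 encodes. COL1A2 (ENSG00000164692, chr7:94394895-94431227) was read at 0.0468, 0.05801 and 0.0432 RPKM, from 12, 13 and 16 counts. COL1A1 exceeded COL1A2 per length by 3842-fold, 3304-fold and 4514-fold. No exon base of COL1A2 lies in an exon of another gene. The genes on either side, picked by position, were higher: TFPI2 at 7.93 ± 0.0707, GNG11 at 3.17 ± 0.345, BET1 at 2.84 ± 0.162, CASD1 at 1.53 ± 0.211, SGCE at 1.31 ± 0.0158 and PEG10 at 6.77 ± 0.684 RPKM. All 6 of these neighbours were expressed, and COL1A2 was trace between them.

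All 6 cartilage collagens lay below the expression limit, and at a limit of 0.5 RPKM 2 of the 6, COL9A3 and COL11A2, would count as expressed. COL9A3 was read at 0.8099, 0.887 and 0.856 RPKM, COL11A2 at 0.819, 0.766 and 0.576 RPKM and COL9A2 at 0.200, 0.286 and 0.194 RPKM, so these 3 and COL2A1 gave low but repeated counts. COL9A1 and COL11A1 had no count in any library, which at 3 counts over the 3 libraries allows up to 0.00527 and 0.00419 RPKM. Type IX and XI collagen each need several chains, and in both families at least one chain gene had no counts. COL10A1, the collagen of hypertrophic chondrocytes, was low at 0.161 ± 0.0809 RPKM. COL3A1, a fibril partner of type I collagen, was also low at 0.585 ± 0.0442 RPKM. COL12A1, COL16A1, COL27A1 and COL5A3 were expressed between 2.06 and 5.104 RPKM.

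**Figure D2:**
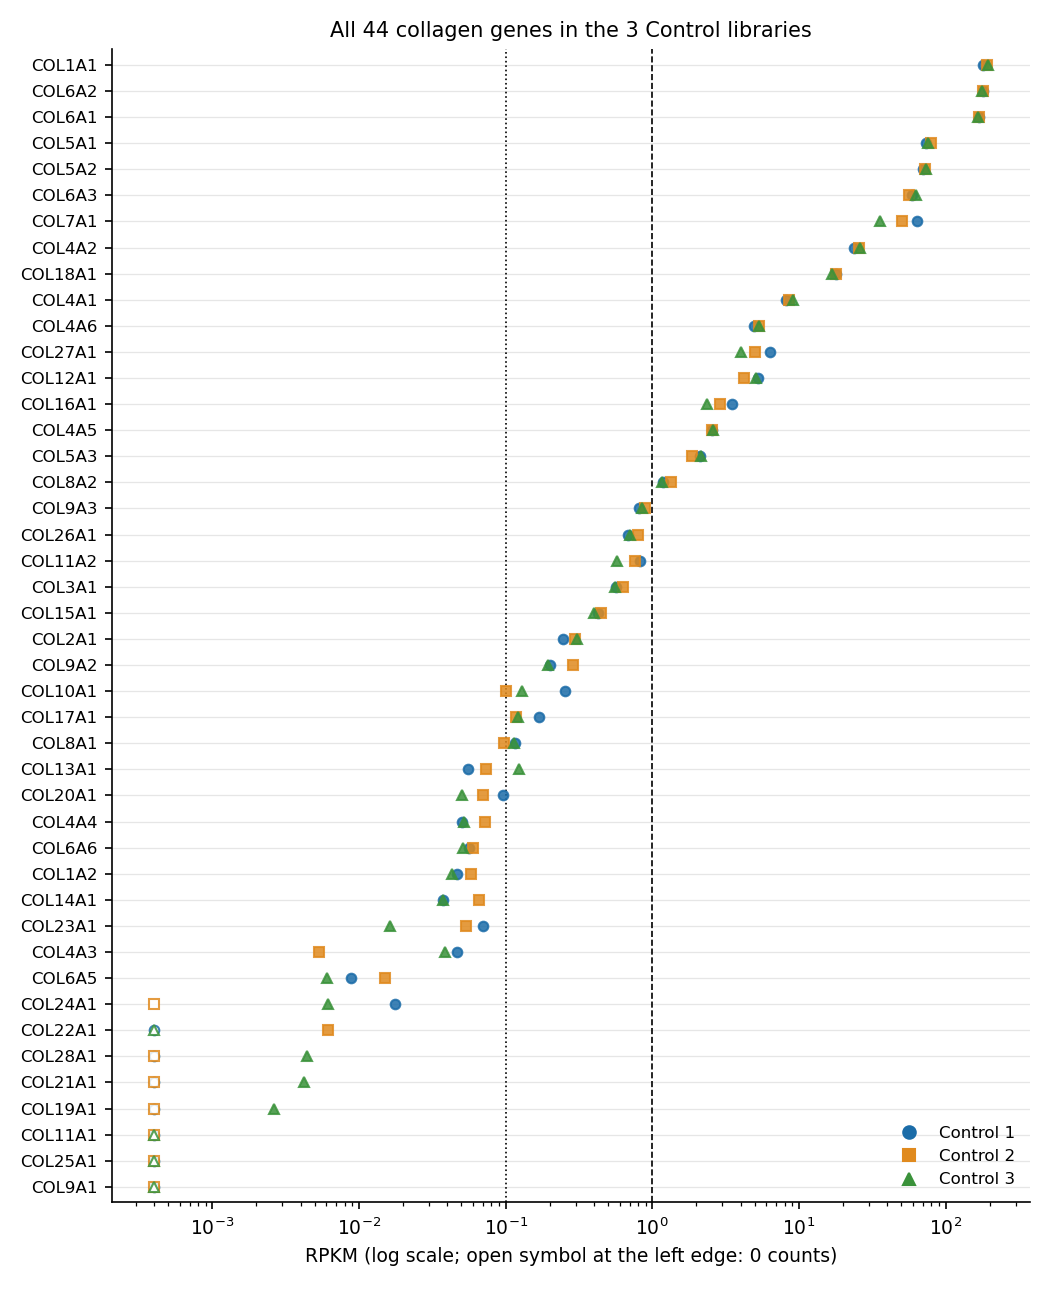
RPKM of the 44 collagen genes in each Control library (log axis, symbols for libraries, open at the left edge where a library had no count, lines at 0.1 and 1 RPKM). COL1A1, COL6A2 and COL6A1 lie above 100 RPKM, COL1A2 lies below 0.1 RPKM, and COL9A1, COL11A1 and COL25A1 had no counts.

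Among the 19 proteoglycans and matrix proteins of cartilage, 1 was expressed, 9 were low and 9 were trace. MATN3, the matrilin that links collagen fibrils to proteoglycan and is mutated in a form of epiphyseal dysplasia, was read at 4.04, 4.26 and 4.01 RPKM. The next highest were COMP, cartilage oligomeric matrix protein, at 0.779 ± 0.141 RPKM, CRTAC1 at 0.745 ± 0.0313 RPKM and SNORC at 0.5297 ± 0.119 RPKM, all low. HAPLN1, the link protein that fixes aggrecan to hyaluronan, was read from 0, 1 and 0 counts. CILP (0.0112 RPKM), PRG4 (0.0301 RPKM), which encodes the lubricant lubricin, and CNMD (0.0363 RPKM), chondromodulin, were trace. EPYC and UCMA had no count in any library. MIA shares 68% of its exon bases with other genes, so its low value is uncertain.

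None of 12 small leucine-rich proteoglycans was expressed. These proteins bind collagen fibrils and set their thickness. BGN, biglycan, was the highest at 0.449 ± 0.0571 RPKM and PODN, podocan, next at 0.243 ± 0.0292 RPKM. ASPN, PRELP, OGN, OPTC, OMD, LUM, FMOD, DCN and KERA lay between 0.00638 and 0.0901 RPKM. DCN, decorin, was read from 1, 4 and 1 counts, and the chromosome 12 group of LUM, KERA, EPYC and DCN was trace throughout.

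**Figure D3:**
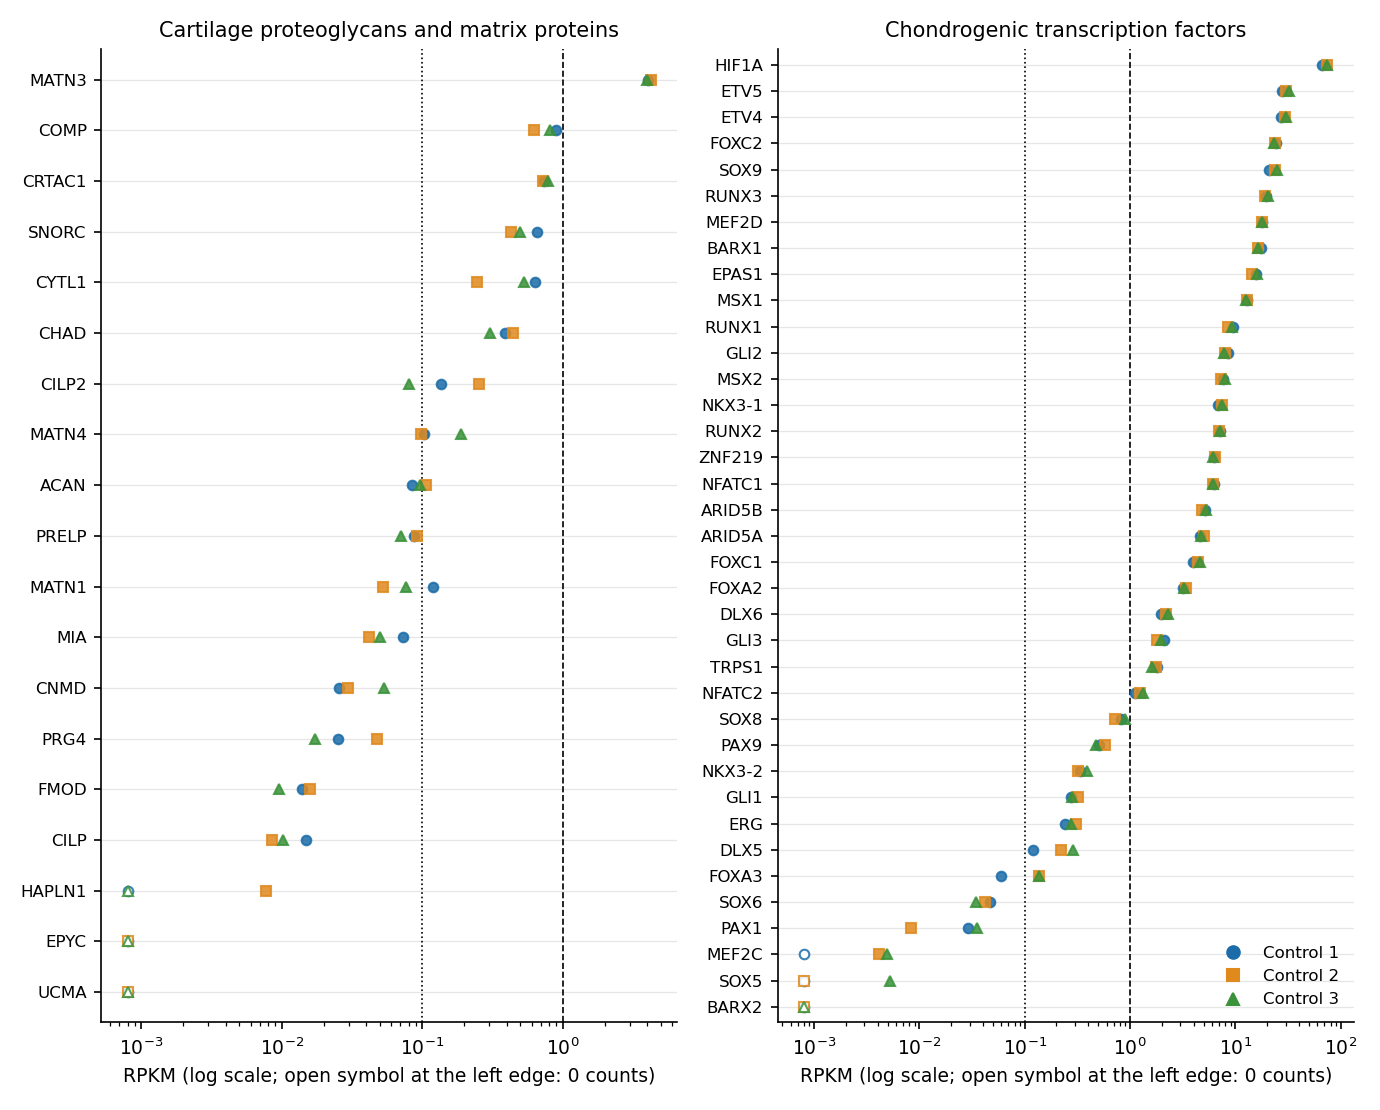
RPKM in each Control library (log axes) of 19 cartilage proteoglycans and matrix proteins on the left and 37 chondrogenic transcription factors on the right, with symbols for libraries, open where a library had no count, and lines at 0.1 and 1 RPKM. MATN3 is the one matrix gene past 1 RPKM in each library, 25 factors lie past it, SOX9 among them, and SOX5 and SOX6 lie below 0.1 RPKM.

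Most fibroblast-like matrix genes were expressed. Of 21 members, 15 were expressed, 3 were low and 3 were trace (71.4% expressed). FN1 was read at 431, 418 and 462 RPKM, at rank 23 of the protein-coding genes. THBS1 was read at 363, 326 and 351 RPKM. With COL1A1 and COL6A2 these are the 4 highest of the list. The trace members were COL1A2, POSTN (0.0262 ± 0.00475 RPKM), which encodes periostin, and ELN (0.0415 ± 0.0163 RPKM), elastin.

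Of 22 basement membrane genes, 18 were expressed (81.8%, beside 54.3% of all nuclear protein-coding genes). Laminins are cross-shaped trimers of alpha, beta and gamma chains, held to type IV collagen by nidogen. LAMA5 was read at 70.8 ± 10.8 RPKM, NID1 at 45.6 ± 2.42 RPKM, LAMB2 at 44.4 ± 4.17 RPKM and LAMB1 at 44.1 ± 1.53 RPKM. LAMC1, the common gamma chain, stood at 32.7 ± 0.804 RPKM. Of type IV collagen, COL4A2 was read at 25.05 ± 1.18 RPKM and COL4A1 at 8.62 ± 0.4597 RPKM, a ratio of 2.89, 2.98 and 2.85 between chains that share a trimer. COL4A5 and COL4A6 were expressed at 2.56 and 5.22 RPKM, and COL4A3 and COL4A4 were trace.

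Of 16 genes of hypertrophy and ossification, 5 were expressed. ANKH, which exports pyrophosphate and so restrains mineral, was read at 7.47 ± 0.141 RPKM and RUNX2, the factor of hypertrophic chondrocytes and osteoblasts, at 7.13 ± 0.0926 RPKM. PTH1R, the receptor of parathyroid hormone-related protein, was read at 2.65 ± 0.501 RPKM and VEGFA at 1.81 ± 0.0266 RPKM. The collagenase MMP13, IBSP, SPP1 (osteopontin) and DMP1 were trace, at 0.0639, 0, 0.0446 and 0.00359 RPKM.

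Of 50 matrix proteases, 22 were expressed and 16 were trace. PLAU, urokinase, was read at 60.3 ± 3.26 RPKM, HTRA1, a secreted serine protease, at 44.6 ± 5.57 RPKM, MMP14, the membrane collagenase that activates MMP2, at 39.6 ± 1.15 RPKM and the lysosomal CTSB at 38.9 ± 1.39 RPKM. PLAU shares 31.03% of its exon bases with genes on the opposite strand, so its level is uncertain. Of the interstitial collagenases, MMP1 was expressed at 13.03 ± 0.2797 RPKM, and MMP8 and MMP13 were trace at 0.00283 and 0.0639 RPKM. The gelatinases MMP2 and MMP9 were read at 13.1 ± 1.64 and 0.695 ± 0.134 RPKM. ADAMTS4 and ADAMTS5, the main aggrecan-cleaving enzymes of cartilage, were at 0.0578 ± 0.00681 and 0.0818 ± 0.0254 RPKM, close to the trace limit like their substrate. ADAMTS18 and ADAMTS20 were trace and ADAMTS19 had no count in any library.

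Protease inhibitors were expressed in 7 of 9 cases. TIMP1 was read at 83.8 ± 5.97 RPKM, TIMP2 at 47.8 ± 4.15 RPKM, TIMP3 at 2.34 ± 0.0975 RPKM and TIMP4 at 0.716 ± 0.1002 RPKM. This family inhibits the matrix metalloproteinases, and its members spanned over 2 orders of magnitude per length. A2M, a broad inhibitor of proteases, was trace at 0.0116 RPKM.

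Of 25 genes of hyaluronan and proteoglycan synthesis, 21 were expressed. CHPF, a chondroitin polymerising factor, was read at 48.3 ± 1.39 RPKM, UGDH, which makes the sugar nucleotide for these chains, at 38.2 ± 2.35 RPKM, CHPF2 at 32.8 ± 2.09 RPKM and the chondroitin sulphotransferase CHST3 at 21.3 ± 0.686 RPKM. Of the hyaluronan synthases, HAS2 and HAS3 were expressed at 3.19 ± 0.267 and 2.62 ± 0.183 RPKM, and HAS1 was trace at 0.0371 ± 0.0153 RPKM. CHSY3 was the other trace member. Of 23 genes of collagen processing, 19 were expressed. P4HB, protein disulphide isomerase and a subunit of prolyl hydroxylase, was read at 66.9 ± 2.39 RPKM, CRTAP, of the prolyl 3-hydroxylation complex, at 52.8 ± 1.49 RPKM, FKBP10 at 47.3 ± 1.53 RPKM and the collagen chaperone SERPINH1 at 39.7 ± 0.504 RPKM. Lysyl oxidases cross-link collagen, and LOXL1 and LOXL2 led them at 28.1 ± 1.73 and 25.5 ± 1.05 RPKM, against 1.48 ± 0.134 RPKM for LOX.

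Among receptors for matrix, 16 of 26 integrin genes were expressed (61.5%, beside 54.3% of all nuclear protein-coding genes). Integrins pair an alpha with a beta chain to hold fibronectin, laminin or collagen. ITGB1, the common beta chain, was read at 63.1, 67.0 and 69.4 RPKM, ITGB5, a partner of the alpha-V chain for vitronectin, at 34.3 ± 1.87 RPKM, ITGA3, of laminin receptors, at 28.2 ± 0.629 RPKM and ITGA5, of the fibronectin receptor, at 21.3 ± 1.24 RPKM. The 4 collagen-binding alpha chains were ITGA2 at 2.69 ± 0.276, ITGA11 at 1.36 ± 0.0857, ITGA10 at 0.279 ± 0.0287 and ITGA1 at 0.203 ± 0.01795 RPKM. ITGA10, the chain typical of chondrocytes, was low, and ITGA3 exceeded it by 92.3-fold, 96.7-fold and 117-fold. ITGA8, ITGA9, ITGAD and ITGAL were trace. Of 12 other matrix receptors, 11 were expressed, with the syndecan SDC4 at 119 ± 6.38 RPKM, the hyaluronan receptor CD44 at 86.7 ± 6.33 RPKM, the dystroglycan gene DAG1 at 58.5 ± 2.93 RPKM and SDC1 at 36.9 ± 1.86 RPKM. CD36 was trace at 0.000894 RPKM.

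Of 54 receptor tyrosine kinases, 26 were expressed (48.1%, beside 54.3% of all nuclear protein-coding genes) and 14 were trace. AXL, a receptor of the vitamin K-dependent ligand GAS6, was far above the rest at 175, 167 and 175 RPKM. EPHA2, an ephrin receptor, followed at 62.7 ± 2.61 RPKM, IGF1R, through which insulin-like growth factor stimulates cartilage matrix synthesis, at 36.5 ± 1.11 RPKM and MET at 22.6 ± 0.780 RPKM. The platelet-derived growth factor receptors were unequal, with PDGFRB at 9.41 ± 0.129 RPKM and PDGFRA at 0.0139 ± 0.0111 RPKM. All 4 fibroblast growth factor receptors were expressed: FGFR3, which restrains growth-plate chondrocytes, at 6.34 ± 0.177, FGFR1 at 6.02 ± 0.122, FGFR2 at 4.11 ± 0.181 and FGFR4 at 1.396 ± 0.113 RPKM. In the epidermal growth factor family, EGFR and ERBB2 were expressed at 13.1 ± 0.662 and 12.2 ± 0.207 RPKM, ERBB3 was low at 0.574 ± 0.0518 RPKM and ERBB4 trace at 0.00414 ± 0.00215 RPKM. KIT and NTRK2 were trace.

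Transforming growth factor beta and bone morphogenetic proteins drive cartilage formation through type I and type II receptor kinases. Of 14 such receptors, 8 were expressed. ENG, the co-receptor endoglin, was read at 39.1 ± 0.767 RPKM, TGFBR2 at 19.6 ± 1.26 RPKM, BMPR2 at 10.5 ± 0.531 RPKM and TGFBR1 at 9.62 ± 0.833 RPKM. BMPR1A was expressed at 8.15 ± 0.412 RPKM and BMPR1B, which acts in early cartilage condensations, was trace at 0.0367 ± 0.00783 RPKM. ACVR1C and AMHR2 were also trace.

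Of 18 Wnt receptors, 12 were expressed. FZD2 was read at 36.9 ± 0.613 RPKM and FZD6 at 32.4 ± 1.93 RPKM. The co-receptor LRP5 was read at 14.8 ± 0.422 RPKM and RYK at 13.2 ± 0.846 RPKM. FZD8 and FZD7 stood at 11.97 ± 0.923 and 9.94 ± 0.275 RPKM, while FZD3, FZD4, FZD9 and FZD10 were low, and LGR5 and LGR6, receptors of R-spondin, were trace. Of 10 Notch and Hedgehog receptors, 6 were expressed, and none was trace. SMO, the Hedgehog signal transducer, was read at 20.1 ± 0.464 RPKM, NOTCH1 at 17.97 ± 0.959 RPKM, NOTCH2 at 13.7 ± 1.12 RPKM and NOTCH3 at 1.88 ± 0.0321 RPKM. PTCH1, both the Hedgehog receptor and a target of the pathway, was read at 1.54 ± 0.111 RPKM.

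Of 38 cytokine and death receptors, 25 were expressed (65.8%, beside 54.3% of all nuclear protein-coding genes). TNFRSF12A, the receptor of TWEAK, was read at 84.0 ± 1.76 RPKM, TNFRSF1A, the main receptor of tumour necrosis factor, at 39.96 ± 1.603 RPKM, IFNGR2 at 37.5 ± 2.02 RPKM and CD40 at 30.1 ± 0.429 RPKM. IL1R1 and IL1RAP, the 2 chains of the interleukin-1 receptor, were expressed at 2.41 ± 0.158 and 1.21 ± 0.121 RPKM, and the decoy IL1R2 was trace at 0.0251 ± 0.0352 RPKM. IL1RL1, IL18R1 and PRLR were trace as well. Of 10 Toll-like receptors, 1 was expressed. TLR4, which senses endotoxin, was read at 3.15 ± 0.160 RPKM, TLR3, TLR6 and TLR5 were low at 0.231, 0.202 and 0.112 RPKM, and TLR1, TLR2, TLR7, TLR8 and TLR10 were trace. TLR9 had no counts, but 86% of its exon bases lie in exons of another gene.

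Of 51 G protein-coupled receptors of lipid, nucleoside and peptide ligands, 17 were expressed and 16 were trace (33.3% expressed, beside 54.3% of all protein-coding genes). ADORA2B, a low-affinity adenosine receptor, was read at 35.7 ± 0.387 RPKM, LPAR1, a lysophosphatidic acid receptor, at 19.6 ± 0.602 RPKM, LPAR2 at 6.26 ± 1.28 RPKM and the thromboxane receptor TBXA2R at 5.87 ± 0.433 RPKM. Of the prostaglandin E2 receptors, PTGER4 was expressed at 2.18 ± 0.132 RPKM, PTGER2 and PTGER1 were low at 0.377 and 0.366 RPKM, and PTGER3 had no count in any library. Of 43 nuclear receptors, 19 were expressed. NR2F6 and NR2F2, orphan receptors, were read at 48.6 ± 0.965 and 27.0 ± 1.49 RPKM, PPARG, best known from adipocytes, at 18.6 ± 0.302 RPKM and NR2C2 at 16.8 ± 0.547 RPKM. ESR1, ESRRG, HNF4A and NR0B2 were trace.

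Chondrocytes live with little oxygen and rely on glycolysis. Of 14 members of the SLC2A glucose transporter family, 6 were expressed. SLC2A10 was read at 39.6, 42.8 and 42.7 RPKM, SLC2A6 at 27.5 ± 0.9497 RPKM and SLC2A1, the transporter also known as GLUT1, at 18.5, 20.1 and 20.6 RPKM. SLC2A10 exceeded SLC2A1 by 2.14-fold, 2.13-fold and 2.08-fold in the 3 libraries. SLC2A11 followed at 9.99 ± 1.33 RPKM. SLC2A2, SLC2A7, SLC2A9 and SLC2A14 were trace. SLC2A14 is nearly identical to SLC2A3, so both levels are uncertain.

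Of 31 lactate and acid-base transporters, 17 were expressed (54.8%, near the 54.3% of all nuclear protein-coding genes). BSG, the chaperone of lactate carriers, was read at 119.6 ± 7.44 RPKM, the chloride-bicarbonate exchanger SLC4A2 at 19.6 ± 0.9097 RPKM, SLC16A3, the lactate exporter MCT4, at 15.7 ± 0.713 RPKM and the sodium-bicarbonate carrier SLC4A7 at 15.1 ± 0.562 RPKM. SLC4A1, SLC4A5, SLC4A9 and SLC4A10 were trace. SLC4A5 shares a large part of its exons with other genes.

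Carbonic anhydrases hydrate carbon dioxide to bicarbonate and a proton, and the series as a whole concerns CA2. Of 15 genes of this family, 2 were expressed, 6 were low and 7 were trace. CA5B, a mitochondrial isoform, was read at 3.83, 4.33 and 4.898 RPKM and CA11, an acatalytic relative, at 3.86, 4.02 and 3.705 RPKM. CA2 (ENSG00000104267), the cytosolic high-activity enzyme, was read at 1.16, 0.986 and 0.9598 RPKM, from 55, 41 and 66 counts, so its values straddled the limit of 1 RPKM and it was counted as low. CA14 (0.618 RPKM) and the tumour-associated CA9 (0.553 RPKM) and CA12 (0.423 RPKM) were low too, and 36.1% of the exon bases of CA9 lie in exons on the opposite strand. CA1, CA3, CA4 and CA5A were trace, and CA8 had no counts. By mean level CA2 stood below CA5B and CA11 and above the other 12 genes of its family.

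Of 17 sodium, potassium and calcium pump genes, 8 were expressed, led by the sodium-potassium pump subunit ATP1B3 at 45.4 ± 3.07 RPKM, the reticulum calcium pump ATP2A2 at 34.4 ± 0.953 RPKM and ATP2B4 at 18.3 ± 0.603 RPKM. ATP1B4 and ATP2B2 were trace and ATP1A4 had no counts. Of 40 amino acid transporters, 19 were expressed (47.5%, beside 54.3% of all nuclear protein-coding genes). SLC7A5, which carries large neutral amino acids, was the highest transporter of all lists at 238, 223 and 234 RPKM. Its partner chain SLC3A2 was read at 40.01 ± 1.36 RPKM, the glutamine carrier SLC38A2 at 62.9 ± 2.74 RPKM and the arginine carrier SLC7A1 at 42.1 ± 1.88 RPKM. SLC1A2, SLC1A6, SLC1A7 and SLC36A2 were trace.

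Cartilage needs sulphate for its glycosaminoglycans, and 9 of 13 phosphate, sulphate and pyrophosphate transporters were expressed. SLC35B2, which brings activated sulphate into the Golgi, was read at 20.8 ± 1.501 RPKM, the phosphate carrier SLC20A1 at 20.6 ± 0.284 RPKM and SLC34A3 at 4.66 ± 1.297 RPKM. SLC34A2 and SLC13A4 were trace, and SLC13A1 had no counts. None of 15 aquaporin genes was expressed. AQP3 was the highest at 0.898, 1.11 and 1.27 RPKM and missed the limit in Control 1 alone, so without Control 1 the count is 1 of 15, and AQP11 was read at 0.793 ± 0.0243 RPKM. AQP1, the water channel known from cartilage, was trace at 0.0676 ± 0.0459 RPKM.

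Of 25 mechanosensitive channels, connexins and pannexins, 13 were expressed (52%, near the 54.3% of all nuclear protein-coding genes). LRRC8A, the core of the volume-regulated anion channel, was read at 34.5 ± 0.735 RPKM, PIEZO1, a stretch-activated cation channel, at 32.9 ± 2.97 RPKM, the pannexin PANX2 at 16.2 ± 0.2198 RPKM and the connexin GJC1 at 14.9 ± 0.843 RPKM. PIEZO2 was lower at 3.69 ± 0.2298 RPKM. GJA1, connexin 43 and the usual gap junction gene of chondrocytes, was low at 0.0745, 0.114 and 0.155 RPKM. TRPV5, TRPV6, TRPC6 and KCNK2 were trace. Of 28 zinc and iron transporters, 17 were expressed, with SLC39A7 at 45.5 ± 0.399 RPKM and the transferrin receptor TFRC at 21.8 ± 0.792 RPKM as the 2 highest.

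Of 37 transcription factors of chondrogenesis, 25 were expressed (67.6%, beside 54.3% of all nuclear protein-coding genes). HIF1A, the oxygen-sensing factor, was read at 71.7 ± 4.55 RPKM, ETV5 and ETV4, factors of fibroblast growth factor signalling, at 29.9 ± 2.19 and 28.8 ± 1.42 RPKM and FOXC2, of early skeletal mesenchyme, at 23.8 ± 0.348 RPKM. All 3 RUNX genes were expressed, with RUNX3 at 19.5 ± 0.636, RUNX1 at 9.07 ± 0.455 and RUNX2 at 7.13 ± 0.0926 RPKM. The partners of SOX9 were not. SOX5 was read from 0, 0 and 2 counts and SOX6 from 22, 17 and 23 counts, giving 0.00176 ± 0.00305 and 0.0411 ± 0.00655 RPKM. SOX9 exceeded SOX6 by 442-fold, 563-fold and 718-fold, and SOX5 was at or below the floor of 3 counts in each library, so no fold is given for it. PAX1 was trace and BARX2 had no counts.

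Within the SOX family, 8 of 19 genes were expressed. SOX12, SOX9, SOX18 and SOX4 stood close together at 23.99 ± 1.01, 22.98 ± 1.91, 21.5 ± 0.147 and 17.7 ± 2.29 RPKM. The ranges of SOX12 and SOX9 over the libraries overlapped. SOX11 and SOX2 were trace, and SOX14 and SOX17 had no counts.

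HOX genes record position along the body axis. Of 39, 29 were expressed (74.4%). The HOXB cluster at chr17:48528526-48728750 had the highest summed level, with 9 of 10 genes expressed and sums of 124, 127 and 125 RPKM. HOXB7 was read at 34.8, 37.8 and 38.7 RPKM, HOXB9 at 31.3 ± 0.976 RPKM and HOXB2 at 28.9 ± 1.55 RPKM, and HOXB1 had no counts. The HOXC cluster had 8 of 9 genes expressed, led by HOXC13 at 20.1 ± 1.33 RPKM, and the HOXA cluster 9 of 11, led by HOXA3 at 14.5 ± 0.758 RPKM. The HOXD cluster at chr2:176092721-176190907 had 3 of 9 genes expressed and a summed level of 9.53, 10.25 and 9.997 RPKM. HOXD9 led it at 4.71 ± 0.139 RPKM, and 6 of its genes were low. HOXC5 and HOXD1 share about 60% of their exon bases with other genes, so their low values are uncertain.

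**Figure D4:**
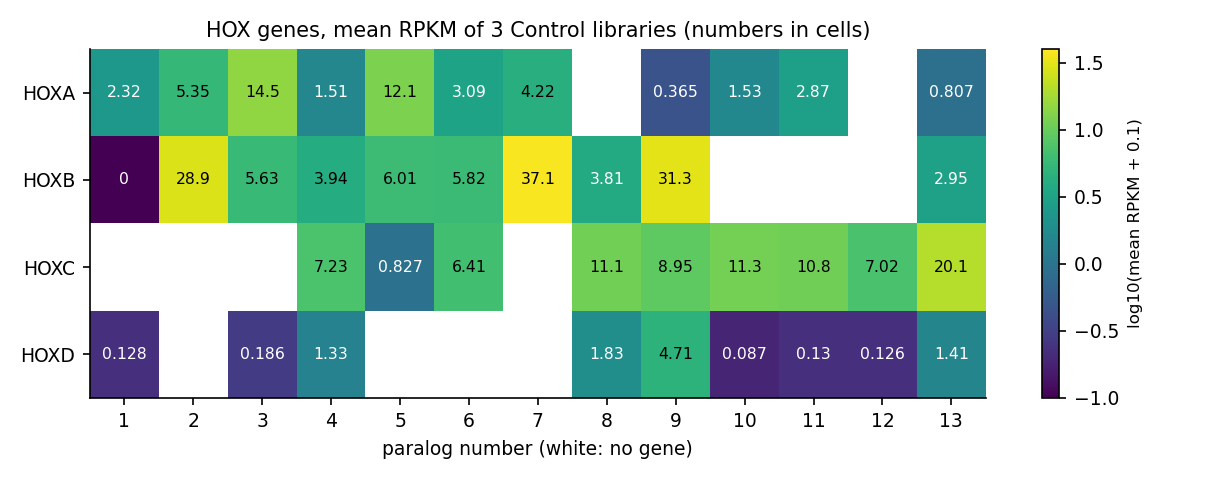
Mean RPKM over the 3 Control libraries of the 39 HOX genes, printed in each cell and coloured on a log10(RPKM + 0.1) scale, by cluster (rows) and paralogue number (columns), with white where no gene exists. HOXB genes reach 37.1 RPKM, HOXC genes reach 20.1 RPKM, and 5 of 9 HOXD genes have means below 1 RPKM.

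AP-1 subunits control proteases and growth genes, and 10 of 13 were expressed. JUNB was read at 152 ± 10.8 RPKM, FOSL1 at 89.8 ± 1.28 RPKM, JUND at 71.6 ± 6.07 RPKM and FOSL2 at 21.1 ± 0.445 RPKM. The immediate-early members were lower, with JUN at 12.7 ± 0.721, FOS at 1.87 ± 0.179 and FOSB at 0.682 ± 0.119 RPKM. BATF was trace. Of 20 mesenchymal factors, 14 were expressed. EGR1 was read at 52.7 ± 4.89 RPKM, PRRX2 at 27.9, 30.4 and 32.2 RPKM, TBX3 at 21.8 ± 0.296 RPKM and SNAI1 at 17.1 ± 0.135 RPKM. PRRX1 was read from 1, 0 and 3 counts, within the floor of 3 counts in each library, and TBX15 and MEOX2 were trace. All 14 YAP, TEAD and SMAD factors were expressed. SMAD3, which carries transforming growth factor beta signals, stood at 55.9 ± 0.992 RPKM against 3.76 ± 0.115 RPKM for SMAD2. The 4 TEAD genes, DNA-binding partners of YAP, lay between 19.9 and 31.3 RPKM, and YAP1 was read at 22.3 ± 0.895 RPKM.

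Among 35 lineage factors of other tissues, 11 were expressed and 13 were trace. NKX2-5, known from heart, was read at 32.5, 32.6 and 32.9 RPKM, GATA2, known from blood and endothelium, at 23.6 ± 0.7401 RPKM, PPARG at 18.6 ± 0.302 RPKM and GATA6 at 13.6 ± 1.09 RPKM. The pluripotency gene SOX2 and the muscle factor MYOD1 were trace, and MYOG, MYF5 and NEUROD1 had no counts.

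Genes of cell division were expressed without exception among the 20 on the list. PCNA, the sliding clamp of replication, was read at 244 ± 10.7 RPKM, MKI67 at 132 ± 10.9 RPKM, AURKA at 109 ± 3.79 RPKM and AURKB at 100.4 ± 3.26 RPKM, and BUB1 was the lowest at 23.8 ± 1.06 RPKM. E2F1, a factor that RB proteins restrain, was read at 55.5 ± 1.21 RPKM, the cyclin-dependent kinase inhibitor CDKN1A at 52.4 ± 6.85 RPKM and the kinase CDK4 at 40.4 ± 0.0892 RPKM. CDK4 shares 44.2% of its exon bases with genes on the opposite strand, so its level is uncertain. TERT, the catalytic subunit of telomerase, was low at 0.257 ± 0.0801 RPKM. CCND2, a D-type cyclin, was trace.

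Of 69 cytokines, chemokines and growth factors, 37 were expressed (53.6%, near the 54.3% of all nuclear protein-coding genes) and 13 were trace. MDK, the growth factor midkine, was read at 197, 218 and 229 RPKM, TGFB1 at 133 ± 8.15 RPKM, the Wnt inhibitor DKK1 at 95.8 ± 3.09 RPKM and WNT5A at 36.9 ± 1.84 RPKM. Of the transforming growth factor beta genes, TGFB2 was expressed at 19.95 ± 0.336 RPKM and TGFB3 was low at 0.587 ± 0.164 RPKM. CCL5 and CCL7 were trace, and CXCL5 and CCL20 had no counts.

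**Figure D5:**
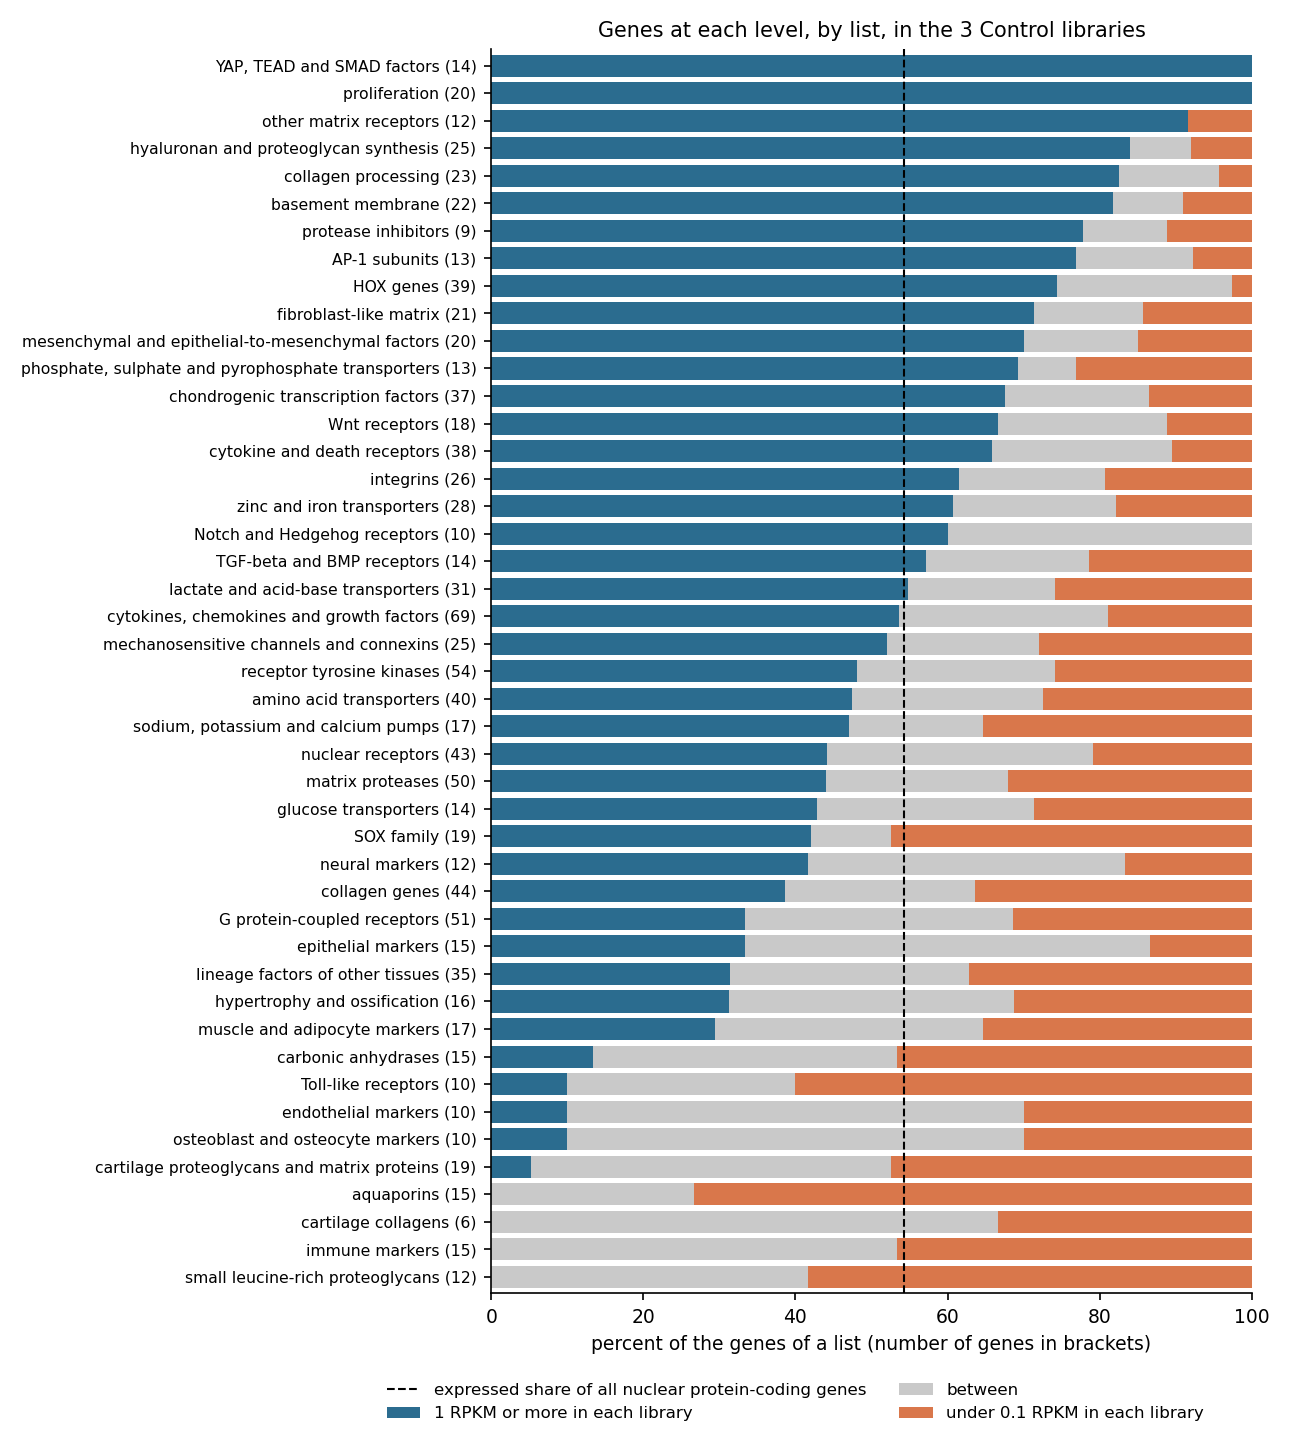
Share of expressed, low and trace genes by gene list, for most of the protein-coding lists (horizontal bars, percent of the genes of a list, number of genes in brackets, dashed line at the 54.3% of all nuclear protein-coding genes). Lists of proliferation, YAP, TEAD and SMAD factors are expressed in full, and cartilage collagens, small leucine-rich proteoglycans, aquaporins and immune markers have no expressed gene.

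Of 15 immune markers none was expressed, 8 were low and 7 were trace, with a summed level of 2.91 to 3.53 RPKM over the 3 libraries. PTPRC, CD3E and CD8A were trace, MS4A1 and TYROBP had no counts, and CD14 was the highest at 0.906 ± 0.208 RPKM, and without Control 1 the count is 1 of 15. CD68 was low at 0.285 ± 0.125 RPKM, but 81.6% of its exon bases lie in exons of other genes on the same strand. LYZ was trace, with 34.7% of its exon bases in exons on the opposite strand, so both levels are uncertain. Of 10 endothelial markers 1 was expressed, EGFL7 at 23.2 ± 0.865 RPKM, which made up most of the summed 24.5 to 25.6 RPKM. PECAM1, TEK and TIE1 were trace, and CDH5 was read at 0.1196 ± 0.0332 RPKM. Of 15 epithelial markers 5 were expressed, with a summed level of 82.6 to 87.1 RPKM. KRT8 and KRT18, partner keratins of simple epithelia, were read at 38.1 ± 1.22 and 31.3 ± 0.682 RPKM, MUC1 at 5.65 ± 0.519 RPKM and KRT7 at 4.16 ± 0.346 RPKM. EPCAM and CDH1 were near the trace limit at 0.1204 ± 0.0925 and 0.103 ± 0.0196 RPKM, and KRT5 and KRT19 were trace. KRT8 and KRT18 have pseudogene copies, so their levels are uncertain.

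Of 12 neural markers 5 were expressed, led by SNAP25 at 5.45 ± 0.168 RPKM and the intermediate filament NES at 4.63 ± 0.402 RPKM, with a summed level of 15.7 to 16.9 RPKM. MAP2 was trace. Of 17 muscle and adipocyte markers 5 were expressed, with a summed level of 29.4 to 30.8 RPKM. TNNT1, slow skeletal troponin T, was read at 18.4, 19.7 and 20.7 RPKM, CNN1 at 2.48 ± 0.0599 RPKM, CFD at 2.41 ± 0.462 RPKM and LPL at 1.79 ± 0.149 RPKM. MYOD1, ACTN2 and ADIPOQ were trace and MYOG had no counts. For ADIPOQ, 46.4% of the exon bases lie in exons on the opposite strand, so its level is uncertain. Of 10 osteoblast and osteocyte markers 1 was expressed, RUNX2, and the summed level was 9.46 to 9.82 RPKM. ALPL, alkaline phosphatase, was read at 1.17, 1.04 and 0.852 RPKM and missed the limit in Control 3 alone, so without Control 3 the count is 2 of 10. Whether a few cells of another type were present was not tested.

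Reads from exon bases that genes share were largely not counted, which limits the noncoding RNA most. Of 774 genes whose exon bases lie wholly in exons on the opposite strand, 774 had no count in any library. Of 1260 covered on the same strand, 1220 had none, against 40.5% of 41908 genes that share no exon base. RN7SK, RMRP, RN7SL2, RPPH1, RNU12 and SCARNA2 are wholly or nearly wholly covered, so their 0 counts say nothing of their level.

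Long noncoding RNA genes numbered 14868, of which 875 were expressed (5.89%), and they took 1.28% ± 0.176 of the counts. Small structural RNA genes numbered 7069, of which 286 were expressed, with 0.999% of the counts. Pseudogenes numbered 15184, of which 911 were expressed, with 0.861% of the counts. RN7SL1, the RNA of the signal recognition particle, was the most abundant noncoding RNA at 6789, 8071 and 7448 CPM. MALAT1, a nuclear speckle RNA, was read at 1401, 975 and 654 CPM and NORAD, which binds PUMILIO proteins, at 472, 498 and 534 CPM. FGD5-AS1 was read at 559, 607 and 611 CPM. MALAT1 and NEAT1 were highest in Control 1 and lowest in Control 3, whereas NORAD and FGD5-AS1 varied less. The mitochondrial pseudogene MTATP6P1, the signal recognition pseudogenes RN7SL4P and RN7SL5P, the ribosomal protein pseudogene RPL10P9 and the small nucleolar RNA SNORD3A complete the top of the noncoding ranking, and pseudogene counts can come from their parent genes.

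Of 50 long noncoding RNAs on a list of studied genes, 27 were expressed (54%, beside 5.89% of all long noncoding RNA genes). MALAT1 was read at 114 ± 42.4 RPKM, NORAD at 92.8 ± 5.82 RPKM, and the small nucleolar host genes SNHG6 and SNHG29 at 33.01 ± 1.91 and 24.2 ± 0.979 RPKM. H19, an imprinted RNA abundant in fetal tissue, was trace from 0, 1 and 0 counts. LINC-ROR and ROCR, the latter described as a SOX9-linked RNA of cartilage, were trace, and LINC01705 had no counts. Of 526 small nucleolar RNA genes, 52 were expressed (9.89%, beside 4.05% of all small structural RNA genes) and 347 had no count. SNORD3A, the U3 RNA of ribosome assembly, was read at 789 ± 33.1 RPKM, SNORA12 at 392 ± 47.02 RPKM, SNORD17 at 161 ± 13.3 RPKM and SNORA73B at 102 ± 19.9 RPKM. RNU4-1 and RNU4-2, copies of the U4 spliceosomal RNA, were read at 399 ± 118 and 351 ± 111 RPKM. Near-identical copies make the levels of these small RNAs uncertain.

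Of 70 replication-dependent histone genes, 60 were expressed (85.7%). Their messages end in a stem-loop rather than a poly(A) tail. The highest were H3C3, H2AC20 at 570.1 ± 35.5 RPKM, H2BC12 at 568 ± 14.6 RPKM and H3C2 at 530.3 ± 23.1 RPKM. H2AC1 and H2BC1, known from testis, were trace. Histone genes of a type are near-identical in coding sequence, so counts may be divided among them.

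All 13 protein-coding mitochondrial genes and both ribosomal RNA genes of the mitochondrion were expressed. MT-CO2, of cytochrome oxidase, was read at 9062, 8676 and 6243 RPKM and MT-ND4, of complex I, at 7308, 7281 and 5012 RPKM. Both were lowest in Control 3. The ribosomal RNA MT-RNR2 was read at 64.9, 7.28 and 46.2 RPKM and MT-RNR1 at 48.7, 7.99 and 37.9 RPKM, lowest in Control 2. MT-CO2 exceeded MT-RNR2 by 140-fold, 1192-fold and 135-fold in Control 1, 2 and 3. The ribosomal RNA counts thus differed between libraries much more than those of the messages. The labels name FastSelect, which removes ribosomal RNA, so MT-RNR1 and MT-RNR2 values need not reflect the ribosomal RNA of the cells. Whether its removal differed between libraries was not tested.

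Few genes varied between the Control libraries. Of the 10819 expressed genes, 1, 11 and 2 were at least 2-fold apart between Control 1 and 2, Control 1 and 3, and Control 2 and 3. Of 4348 expressed genes with a mean of at least 10 RPKM, 5 had a coefficient of variation over 25%. COL7A1, the anchoring fibril collagen, was read at 64.1, 50.9 and 35.5 RPKM, PABPC1L at 15.3, 11.6 and 7.85 RPKM and UCN2, the peptide hormone urocortin-2, at 14.1, 10.5 and 7.66 RPKM. LENG8 was read at 29.6, 23.1 and 17.2 RPKM and LCAT, an enzyme of cholesterol esterification, at 12.9, 10.6 and 7.63 RPKM. All 5 were highest in Control 1 and lowest in Control 3, the order also seen for MALAT1 and NEAT1, and whether these differences share a source was not tested.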

How the data were processed

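RNA sequencing tables of the 3 Control libraries were used, and the 6 tables of the other groups were not. The authors deposited 1 table per library with a read count, CPM and RPKM for each of 60671 Ensembl genes, per the file headers. The deposited CPM and RPKM equalled the values recomputed from the deposited count, the total count of the library and the exon length. The submitters' processing notes name bcl2fastq, STAR 2.5.1a, Subread and featureCounts 1.4.6-p5, with GRCh38 as the build. Not given in the sources used here were the annotation release, the strand setting and how multiply mapped reads were treated. Reads of near-identical genes could therefore be split or lost.

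Symbols came from a reference table for 60401 genes and from GENCODE 29 for 246, and 24 had none. Types came from GENCODE 29 for 58453 genes and from RefSeq for 77, and 2141 had none. Coordinates, exon lengths and exon overlaps came from the gene positions that the authors deposited, and promoters came from RefSeq. Means and SDs were taken over the 3 libraries with Python 3.11.15 and pandas 2.3.3, and no test was made. Scaling alternatives used edgeR 4.0.16 TMM factors and DESeq2 1.42.0 size factors. The classification was tested on simulated data. Depth ran from 20715858 to 34261244 counts, and floors cover counting error only.

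Genes named were the 20 highest protein-coding genes by RPKM and by CPM, the 10 highest noncoding RNAs, the cell type markers, up to 4 of the highest and 4 of the trace genes of each of 52 lists, members completing a family of up to 12, and the 5 most variable genes of at least 10 RPKM. The members and lists were chosen with earlier results of these data known. Genes named outside this rule were chosen after their values were seen, and these are the neighbours of COL1A2 and single members of the larger lists, such as CA2, GJA1, TERT, BUB1 and the genes of the closing paragraphs. Genes of X inactivation and of the Y chromosome are not described, and a few other genes of the lists are not reported here. Alternatives changed the expression limit, the scaling, the count minimum and the ranking, and left out each library in turn.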

Additional observations from a re-analysis of the deposited data

How the results depend on the processing

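The number of expressed protein-coding genes was 10819 and lay between 9372 at a limit of 2 RPKM and 12463 with values rescaled to TPM, within 1.5 times under each of the 11 alternatives. Without each Control library in turn it ran from 10877 to 10913. With mitochondrial genes left out of the total, the share of counts in the 10 most abundant genes fell from 7.13% to 5.16%, that of the top 100 from 19.2% to 15.7% and that of the top 1000 from 48.3% to 45.7%. Ranking by CPM kept 8 of the 20 genes highest by RPKM, and the other settings tried kept all 20. Over the lists, 650 distinct genes were expressed, with 569 at 2 RPKM, 730 at 0.5 RPKM and 773 with TPM. The expressed count of a single list moved by more than 1.5 times for 11 of 52 lists with TPM, 7 at 0.5 RPKM, 4 at 2 RPKM, 1 with a count minimum of 10, and 2, 0 and 1 without Control 1, 2 and 3. Cartilage collagens were among the lists moved at 0.5 RPKM, from 0 to 2 of 6. Aquaporins and immune markers each went from 0 to 1 without Control 1, and osteoblast and osteocyte markers from 1 to 2 without Control 3. None moved with TMM or DESeq2 factors. The levels of the 8 marker genes checked moved by more than 1 SD only with TPM, which rescales every gene of a library. No paired analysis was possible because all values are levels within 1 group and come from no test. Depth limits genes near the trace limit, where a few counts decide the class.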

Other observations

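Ligands and their receptors could be set side by side, for genes picked after their values were seen. Of the bone morphogenetic proteins, BMP4 and BMP7 were read at 17.7 ± 0.204 and 15.7 ± 0.146 RPKM, BMP2 and BMP6 were low at 0.231 ± 0.0289 and 0.3897 ± 0.0382 RPKM, and the joint-forming factor GDF5 was at 0.0406 ± 0.0196 RPKM with part of its exons shared with another gene. INHBA, a subunit of activin, was read at 35.8 ± 0.511 RPKM. The interleukin-6 family ligands LIF, IL11 and IL6 were read at 15.6 ± 1.304, 8.16 ± 0.779 and 7.34 ± 0.212 RPKM, and their shared receptor chain IL6ST at 15.2 ± 1.14 RPKM. TNFRSF11B, osteoprotegerin, was read at 11.8 ± 0.668 RPKM, and its ligand TNFSF11 had no count in any library. IGF1 was read from 0, 1 and 0 counts and was trace, but 82.5% of its exon bases lie in exons on the opposite strand, so its level is uncertain. IGF1R was read at 36.5 ± 1.11 RPKM.

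Differences between the Control libraries were set beside exon length. Among expressed protein-coding genes, the median log2 difference of Control 3 minus Control 1 was 0.06 in the 2705 genes of 387 to 3322 exon bases and 0.01 in the 2704 genes of 7623 to 47883 exon bases. Over the same shortest and longest genes it was 0.05 and -0.03 for Control 2 minus Control 1. For Control 3 minus Control 2 it was 0.01 and 0.04. Both differences from Control 1 were thus higher in the shortest genes than in the longest, while Control 3 minus Control 2 was higher in the longest. Control 3 was the highest library for 4741 of these genes, Control 1 for 3411 and Control 2 for 2667. What lies behind these differences was not tested.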
